A study of Mus musculus with 2 samples.

Results

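Described here are 37 genes of DNA replication and S phase, taken from a fixed list of symbols and found as 37 of the 31253 gene rows of a single-cell RNA count matrix from mouse duodenal crypts. The study set wild-type mice of a group labelled NT beside wild-type mice of a group labelled ES, under a title about chronic stress and the aging of intestinal stem cells. Each group gave 1 library, a pool of cells from 5 animals. The labels do not spell out the letters NT and ES, and strain, sex and age are not given in the sources used here. Barcodes carry suffix 1 or 2, and nothing in the labels ties a suffix to NT or ES. The libraries are therefore called library 1 and library 2, and no value below has a direction from one treatment to the other. With 1 pooled library per group there was no replicate and no test between groups: intervals are exact 95% intervals that cover counting error and nothing else.

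A cell copies its genome once per division. In G1 the MCM helicase is loaded on origins by Cdc6 and Cdt1, and geminin later blocks reloading. In S phase the helicase is activated by Cdc45 and GINS, primase and polymerase alpha start each strand, and the PCNA clamp, its loader, DNA ligase and chromatin assembly factors finish and repackage it. Transcription of many of these genes rises at the G1/S transition under E2F factors. In the crypt, Lgr5-positive stem cells and the transit-amplifying progenitors above them divide, while enterocytes, Paneth cells and most mature secretory cells do not.

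The promoter letters are shown first for 5 genes chosen because they hold a match to the sequences searched: Mcm6, which has the most, and the 4 genes with a match among the 5 at each end of an ordering by mitosis UMIs described further on. The RefSeq promoter table for GRCm38.p6 gave 300 bases, 250 before and 50 after each start, for 30 of the 37 genes. It was searched on both strands for 4 E2F-type sequences of 8 letters: TTTCCCGC, TTTGGCGC, TTTCGCGC and TTTGCCGC. Matches can overlap each other. A match was found for 14 of those 30 genes, 46.7%, against 2.6% of all 27025 genes in the table. Among the other replication genes listed for comparison it was 16 of 51, and among 18 genes of mitosis, 16 of them in the table, it was 0. A match is a description of these letters, not a binding site. Capitals mark the matches, each sequence is written 5′ to 3′ on the gene's strand, and positions count from the annotated start.
Mcm6, chr1:128359656-128359955, minus strand, matches starting at -110, -106 and -47: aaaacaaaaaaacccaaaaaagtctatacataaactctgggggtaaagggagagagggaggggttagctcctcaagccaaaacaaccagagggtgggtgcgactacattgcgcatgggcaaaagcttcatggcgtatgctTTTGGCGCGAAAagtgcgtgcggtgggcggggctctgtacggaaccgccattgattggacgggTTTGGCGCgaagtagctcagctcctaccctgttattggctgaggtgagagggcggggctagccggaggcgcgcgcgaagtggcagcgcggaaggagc
Cdt1, chr8:122567765-122568064, plus strand, match starting at 33: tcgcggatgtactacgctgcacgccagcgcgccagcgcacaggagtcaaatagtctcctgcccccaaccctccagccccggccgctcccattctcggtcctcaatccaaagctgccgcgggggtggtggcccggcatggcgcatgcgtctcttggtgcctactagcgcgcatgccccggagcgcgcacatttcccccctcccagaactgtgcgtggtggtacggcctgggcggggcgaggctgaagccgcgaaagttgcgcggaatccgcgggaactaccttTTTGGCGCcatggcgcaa
Msh6, chr17:87974800-87975099, plus strand, match starting at 16: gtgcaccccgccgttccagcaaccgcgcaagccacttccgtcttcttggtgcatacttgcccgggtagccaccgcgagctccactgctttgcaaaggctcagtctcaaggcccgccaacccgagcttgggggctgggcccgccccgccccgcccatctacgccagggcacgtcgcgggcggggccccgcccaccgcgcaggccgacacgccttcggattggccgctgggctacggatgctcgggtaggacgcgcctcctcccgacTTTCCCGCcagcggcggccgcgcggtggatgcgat
Clspn, chr4:126556730-126557029, plus strand, match starting at 22: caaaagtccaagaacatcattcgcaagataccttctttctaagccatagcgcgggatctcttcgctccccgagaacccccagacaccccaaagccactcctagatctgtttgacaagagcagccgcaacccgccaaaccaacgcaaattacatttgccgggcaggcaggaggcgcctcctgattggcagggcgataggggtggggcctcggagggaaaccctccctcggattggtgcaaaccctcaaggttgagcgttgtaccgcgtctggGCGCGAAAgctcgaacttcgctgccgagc
Pclaf, chr9:65890073-65890372, plus strand, match starting at -5: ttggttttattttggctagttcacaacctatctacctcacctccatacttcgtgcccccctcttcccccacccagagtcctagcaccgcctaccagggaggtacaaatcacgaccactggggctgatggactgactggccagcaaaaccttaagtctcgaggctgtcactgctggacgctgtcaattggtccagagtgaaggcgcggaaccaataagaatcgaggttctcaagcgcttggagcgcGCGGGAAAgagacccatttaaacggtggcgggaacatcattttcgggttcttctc

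Of 12756 barcodes, 7784 passed a filter of at least 500 genes and at most 25% mitochondrial UMIs, 4057 in library 1 and 3727 in library 2. Their median depth was 10854 and 11800 UMIs, and the 37 genes together gave 110666 and 82201 UMIs. The libraries share 40 barcode sequences, 13 of them kept in both. Cells were classed by UMIs of marker lists that hold none of the 37 genes. Stem-like cells (Lgr5, Olfm4, Smoc2 and others) numbered 1044 in library 1 and 745 in library 2. Epithelial cells below every marker cut, called marker-free, numbered 1107 and 890. Enterocyte-like cells numbered 710 and 822, goblet-like cells 435 and 526, and Paneth-like cells 149 and 216. Enteroendocrine-like cells numbered 49 and 73, tuft-like cells 24 and 49, and lymphocyte-like cells 269 and 222. Defining markers of blood vessels and stroma were at or near 0 in the stem-like class, where 7 such genes gave 2 and 5 UMIs. Paneth markers, which can mark free RNA, were higher in library 2 in every named class but the Paneth-like one, for example 3407 CPM in library 1 and 4404 CPM in library 2 in stem-like cells.

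The 37 genes were most abundant in stem-like and marker-free cells, and in lymphocyte-like cells of library 2. Levels are CPM, UMIs per 1000000 UMIs of the class, and since reads come from the 3′ end they are compared within a gene and not between genes. Summed over the list, stem-like cells held 3779 CPM in library 1 and 3697 CPM in library 2, marker-free cells 2587 and 2050 CPM. Goblet-like cells held 1951 and 1354 CPM. Enterocyte-like cells held 485 and 471 CPM, and Paneth-like cells 538 and 470 CPM. Stem-like cells thus stood 7.79-fold above enterocyte-like cells in library 1 and 7.84-fold in library 2. A gene is called apart where its ratio reached 1.5 in either direction with an interval that leaves out 1 and at least 20 UMIs over the cells compared. All 36 measured genes were apart and higher in stem-like than in enterocyte-like cells in both libraries, against 36.7% of all 11502 features measured there. The median log2 ratio was 3.66 in library 1 and 3.69 in library 2, beside 0.38 and 0.33 over all features. Marker-free cells were also above enterocyte-like cells for 36 of 36 genes, against 21.6% of all features.

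**Figure D1:**
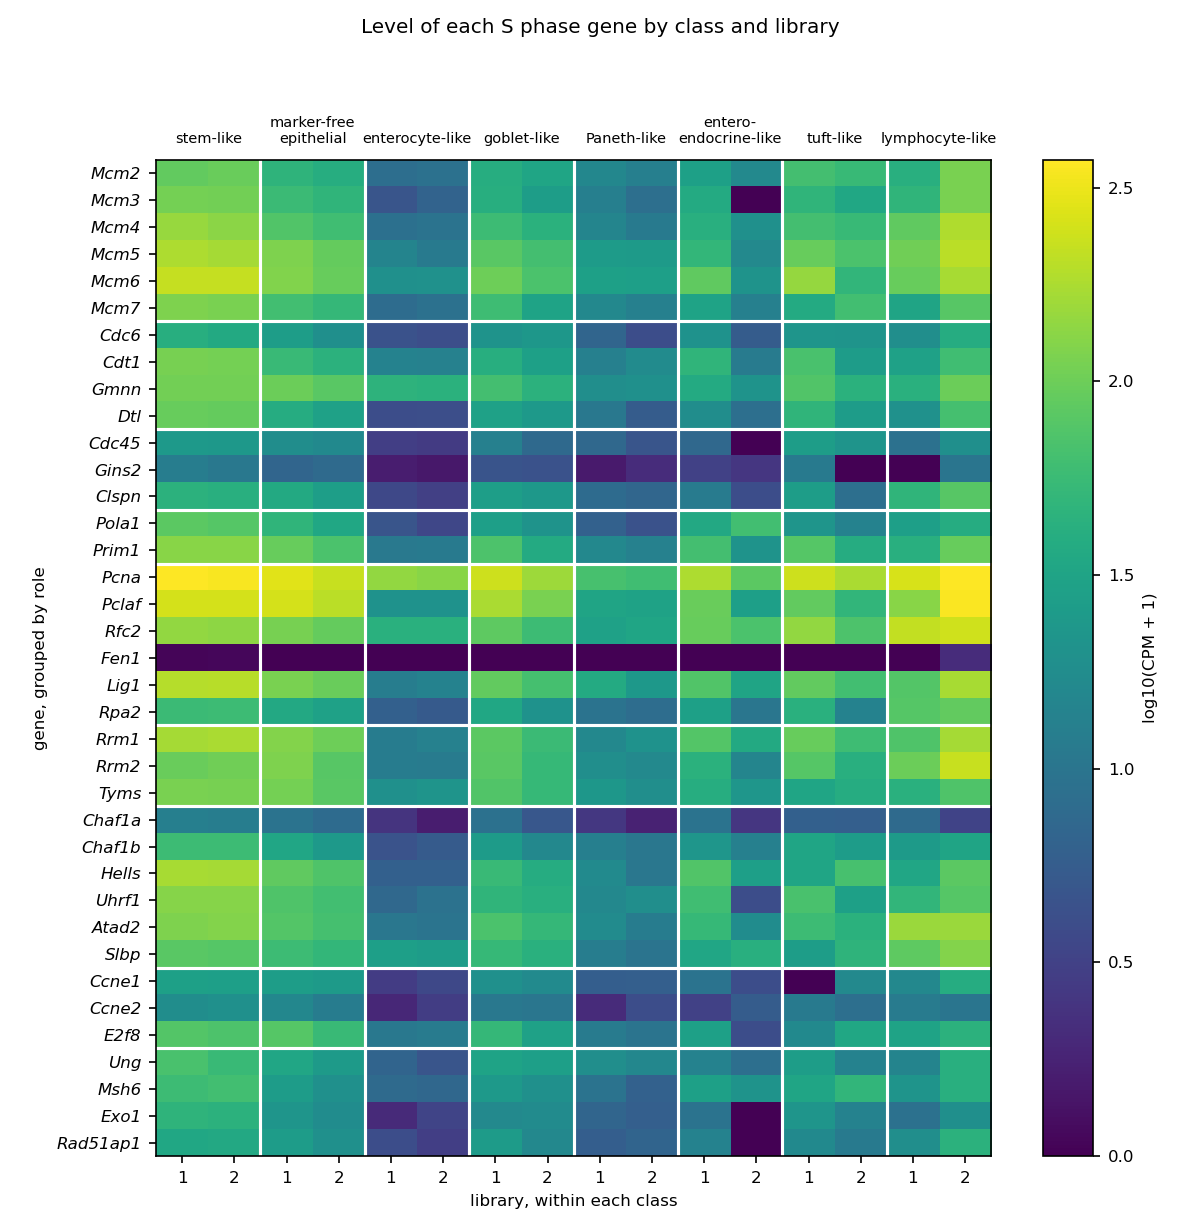
Level of each gene as log10(CPM + 1), 1 row per gene in the order of the roles described in the text and 2 columns per class, library 1 and library 2. Most genes are brighter in the stem-like and marker-free columns than in the enterocyte-like and Paneth-like ones, Fen1 is dark in all, Pcna stays bright in enterocyte-like cells (143 and 129 CPM), and the lymphocyte-like column of library 2 is brighter than that of library 1.

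Among the 6 MCM subunits, which form the replicative helicase, Mcm6 (chr1:128331590-128359664, minus strand) held 223 CPM in stem-like cells of library 1 and 221 CPM in library 2. In marker-free cells it held 120 and 93.4 CPM, and in enterocyte-like cells 18.4 and 18.9 CPM. Mcm5 fell from 180 and 167 CPM in stem-like cells to 13.5 and 10.4 CPM in enterocyte-like cells. The other 4 subunits followed this order of classes in both libraries. Mcm2, Mcm3, Mcm4 and Mcm5 were highest in lymphocyte-like cells in library 2, where Mcm4 reached 184 CPM beside 131 CPM in stem-like cells.

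The licensing factors differed in how far they fell in differentiated cells. Dtl (chr1:191537356-191575544, minus strand), the ubiquitin ligase adaptor that destroys Cdt1 during S phase, stood at 92.6 and 91.4 CPM in stem-like cells and at 3.02 and 3.19 CPM in enterocyte-like cells. That is a ratio of 30.7 (interval 21.3 to 46.0) in library 1 and 28.7 (21.0 to 40.3) in library 2. Gmnn, encoding geminin, the inhibitor of Cdt1, stood at 103 and 104 CPM in stem-like cells and still at 44.8 and 42.4 CPM in enterocyte-like cells. Its ratios of 2.31 and 2.45 were the smallest of the 36 genes in both libraries. Cdt1, the loading factor, lay between them with 110 and 106 CPM against 12.8 and 12.5 CPM. Cdc6, its partner, held 40.3 and 35.5 CPM in stem-like cells.

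At the fork, Clspn, encoding the checkpoint mediator claspin, and Cdc45, part of the active helicase, departed from the common order. Clspn was highest in lymphocyte-like cells in both libraries, at 47.2 and 79.1 CPM, beside 43.8 and 40.6 CPM in stem-like cells. Cdc45 was highest in library 1 in the 24 tuft-like cells, 26.0 CPM from few UMIs, beside 23.4 CPM in stem-like cells. Prim1, the catalytic primase subunit, fell from 130 CPM in stem-like cells of either library to 9.89 and 10.2 CPM in enterocyte-like cells. Pola1, the catalytic subunit of polymerase alpha, fell from 82.0 and 77.5 CPM to 3.75 and 2.56 CPM. In enteroendocrine-like cells Pola1 was at 34.3 CPM in library 1 and 61.3 CPM in library 2, against the direction of 19 of the 21 genes measured there.

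Within the clamp and lagging strand group, the fall towards enterocyte-like cells was small for Pcna and Rfc2 and large for Pclaf and Lig1. Pcna (chr2:132249162-132253314, minus strand), the sliding clamp, held 368 and 348 CPM in stem-like cells, 287 and 226 CPM in marker-free cells and 143 and 129 CPM in enterocyte-like cells. Its stem-to-enterocyte ratios were 2.58 and 2.70. Pclaf, a small PCNA-binding protein, held 256 and 251 CPM in stem-like cells, 255 and 203 CPM in marker-free cells and 19.7 CPM in enterocyte-like cells of either library. The clamp thus fell much less than its partner. Rfc2, a clamp loader subunit, was highest in lymphocyte-like cells in both libraries, 213 and 244 CPM, beside 142 and 135 CPM in stem-like cells. Rpa2, a subunit of the single-strand binding complex, was also highest there, at 76.9 and 88.1 CPM beside 56.1 and 56.5 CPM. Lig1, the ligase that seals Okazaki fragments, fell from 193 and 196 CPM in stem-like cells to 11.2 and 12.9 CPM in enterocyte-like cells.

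Fen1, the flap nuclease of lagging strand synthesis, gave 3 UMIs over all kept cells and is not measured here. GENCODE M21 places it at chr19:10199132-10204169 on the minus strand. The antisense gene Gm10143 (chr19:10198368-10202384) covers 97.1% of its last exon, and gave 33 UMIs. Of the other genes with low counts, Chaf1a (598 UMIs) has 97.2% of its last exon under exons of Ubxn6, and Gins2 (501 UMIs) has 86.8% of its last exon under exons of Gse1, in each case on the opposite strand. Among the 37 genes these 3 had the highest such overlap and the fewest UMIs. No source used here states the counting rule for overlapping genes, and its part in these low counts was not tested.

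Nucleotide supply was represented by the ribonucleotide reductase genes Rrm1 and Rrm2 and by Tyms, thymidylate synthase. Rrm1 fell from 167 and 173 CPM in stem-like cells to 123 and 100 CPM in marker-free cells. Rrm2, whose protein is the cell-cycle-limited subunit, did not follow it in library 1: 96.1 CPM in stem-like and 117 CPM in marker-free cells, against 103 and 79.9 CPM in library 2. Tyms held 112 and 111 CPM in stem-like cells and 18.3 and 20.4 CPM in enterocyte-like cells.

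Among chromatin genes, Hells had the largest stem-to-enterocyte ratio in library 2 of the 36 genes, and in library 1 the second largest after Exo1. Hells (chr19:38930915-38971051, plus strand), a helicase needed for maintenance DNA methylation, stood at 172 and 165 CPM in stem-like cells and 5.10 and 5.13 CPM in enterocyte-like cells. Its ratios were 33.8 (25.5 to 45.8) and 32.2 (25.2 to 41.9). Uhrf1, which brings the maintenance methyltransferase to new DNA, went from 126 CPM in either library to 6.35 and 8.31 CPM. Atad2, a bromodomain ATPase, and Slbp, which binds the histone mRNA stem loop, were both highest in lymphocyte-like cells, Atad2 at 152 and 154 CPM and Slbp at 85.0 and 124 CPM. Slbp fell least in this group, to 27.5 and 25.6 CPM in enterocyte-like cells.

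Among cyclin and E2F genes, E2f8, an S phase target that represses E2F targets, was level between stem-like (74.8 CPM) and marker-free cells (76.8 CPM) in library 1, and 71.1 and 54.7 CPM in library 2. Ccne1, a G1/S cyclin, held 27.6 and 27.4 CPM in stem-like and 26.1 and 24.2 CPM in marker-free cells. In the repair group, Ung, the uracil glycosylase, held 66.6 and 54.5 CPM in stem-like and 32.1 and 24.0 CPM in marker-free cells. Msh6, a mismatch recognition subunit, held 56.5 and 61.2 CPM in stem-like and 25.5 and 18.7 CPM in marker-free cells. Rad51ap1, a recombination cofactor, was highest in lymphocyte-like cells in library 2, at 44.1 CPM, and in stem-like cells in library 1, at 33.0 CPM.

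Between stem-like and marker-free cells, 19 of 36 genes were apart in both libraries, all higher in stem-like cells, against 13.2% of all features. The summed ratio was 1.46 in library 1 and 1.80 in library 2. The marker-free class was uneven in this. Its cells with fewer than 5 enterocyte marker UMIs per 10000 held 3780 and 3418 CPM, near the stem-like sums. Those at 5 to 10 held 3259 and 2890 CPM, those at 10 to 20 held 1517 and 1412 CPM, and those at 20 to 30 held 758 and 606 CPM. The part of this spread in the ratios was not tested. Dtl had the largest ratio in library 1, 2.44 (2.21 to 2.71), with 3.18 (2.81 to 3.61) in library 2. Msh6 followed with 2.22 (1.96 to 2.52) and 3.27 (2.80 to 3.82). All of Mcm2 to Mcm7, Cdc6 and Cdt1 were among the 19. At the other end Rrm2 had ratios of 0.82 (0.76 to 0.89) and 1.29 (1.18 to 1.41), E2f8 0.97 and 1.30, and Pclaf 1.003 and 1.24. Of the other replication genes, 22 of 63 were apart higher in stem-like cells and 1 lower. Against goblet-like cells, 30 of 36 genes were apart higher in stem-like cells, beside 17.3% of all features.

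The decline with differentiation followed nearly the same curve in both libraries. Stem-like, marker-free and enterocyte-like cells were put together and split by enterocyte marker UMIs per 10000, a split chosen after the values were seen. Cells with fewer than 5 held 3788 CPM of the summed genes in library 1 and 3648 CPM in library 2. At 5 to 10 the sums were 3491 and 3330 CPM, and at 10 to 20 they were 1589 and 1599 CPM. At 20 to 30 they were 762 and 756 CPM, at 30 to 60 they were 542 and 519 CPM, and at 120 or more 373 and 395 CPM. Most of the fall thus lay between the bin at 5 to 10 and the bin at 20 to 30. Mitosis genes held 4014 and 4288 CPM below 5, 3360.5 and 3723 CPM at 5 to 10, and 2505 and 2338 CPM at 10 to 20. At 20 to 30 they held 1338 and 1134 CPM, and at 30 to 60 they held 566 and 573 CPM. Relative to the lowest bin they stood below the S phase sum at 5 to 10. At 10 to 20 and 20 to 30 they stood above it. The number of cells in the lowest bin was 1192 in library 1 and 488 in library 2. Enterocyte markers in stem-like cells, which can include free RNA, summed to 374 and 585 CPM, and their part in how cells fell into bins was not tested.

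**Figure D2:**
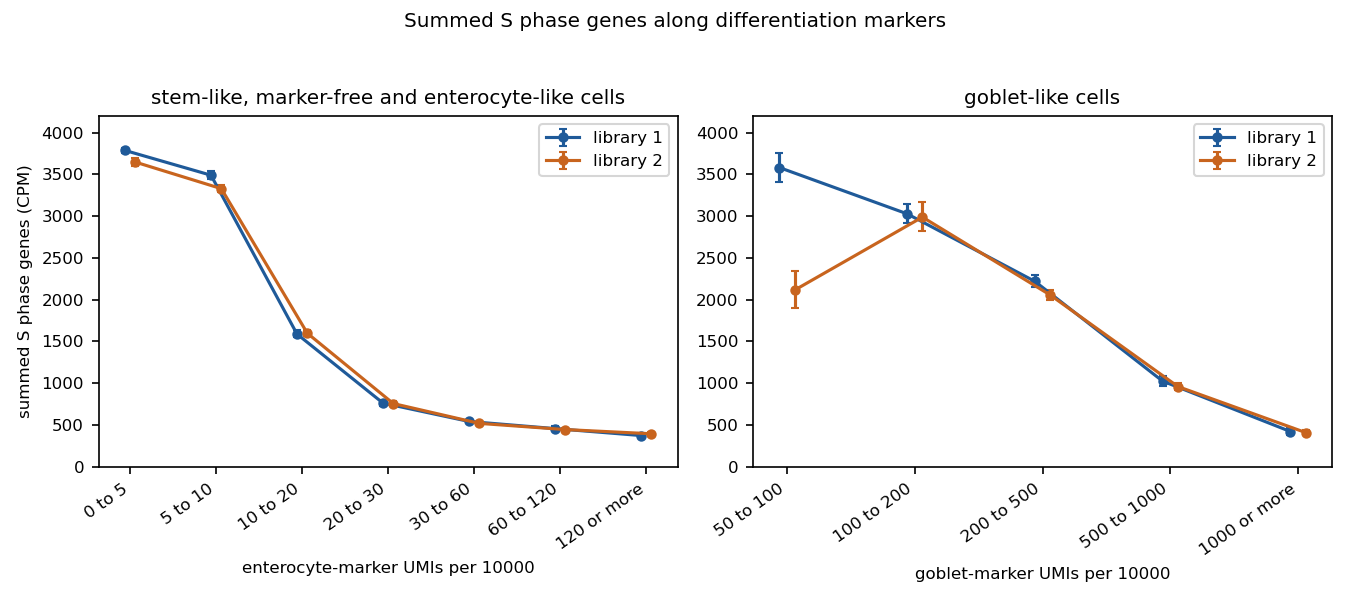
Summed S phase genes in CPM (y axis) by marker UMIs per 10000 (x axis, bins), library 1 in blue and library 2 in orange, bars as 95% counting intervals. Left: the curves fall from about 3788 and 3648 CPM to 373 and 395 CPM along enterocyte markers and run close together. Right: goblet-like cells fall along goblet markers, and the libraries differ most in the first bin, which holds 31 and 17 cells.

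Along stem markers the relation was not monotonic. The stem cut is 20 stem marker UMIs per 10000, so all compared cells at 20 or more were stem-like. Those at 20 to 40 held 4161 and 3944 CPM of the summed genes, and those at 40 to 80 held 4184 and 4271 CPM. At 80 to 160 the sums were 3349 and 3539 CPM. At 160 or more they were 2603 and 2542 CPM, in 79 and 122 cells, and the mitosis genes stood at 2028 and 2185 CPM there. So the cells with the most Lgr5, Olfm4 and related UMIs had lower S phase sums than cells with intermediate stem marker UMIs in both libraries. Below the stem cut the cells were marker-free or enterocyte-like. Those at 5 to 10 held 3507 CPM in library 1 and 2387 CPM in library 2, the widest gap along this axis.

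The genes differed in level by the mitosis UMIs of a cell. Stem-like and marker-free cells, each thinned to 2000 UMIs, were split by UMIs of 18 mitosis genes (Ccnb1, Plk1, Top2a, Mki67 and others). The summed genes held 2226 CPM in library 1 and 1788 CPM in library 2 at 0 mitosis UMIs. At 3 to 5 they peaked at 3806 and 3303 CPM, and at 6 or more they held 3224 and 2986 CPM. The classes differed in this: from 0 to 6 or more, stem-like cells went from 3192 to 3499 CPM and from 3254 to 3609 CPM, and marker-free cells from 1246 to 2995 CPM and from 1049 to 2429 CPM. From 0 to 6 or more the rise thus lay mainly in the marker-free class. At 3 to 5, stem-like cells held 4712 and 4414.5 CPM, and marker-free cells 3016.5 and 2533 CPM. Both classes were thus higher at 3 to 5 than at 0, and stem-like cells fell more after it. In library 1, 27 of 36 genes had their highest level at 3 to 5 and 7 at 6 or more. In library 2 these numbers were 22 and 14. The share of all features with their highest level in each bin was not computed, so these counts are a description.

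Between the extremes of this split the genes differed in direction. At 6 or more against 0, 12 of 36 genes were apart higher in both libraries, beside 5.56% of 10915 features, and 1 gene was apart lower, beside 2.97%. The 12 were Cdc45, Gins2, Clspn, Pola1, Pclaf, Rrm1, Rrm2, Tyms, Atad2, E2f8, Exo1 and Rad51ap1. The median log2 ratio of the 36 genes was 0.40 and 0.57, beside 0.00 and 0.02 over all features. Of 63 other replication genes, 29 were apart higher and 0 lower, with a median of 0.60 and 0.78.

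Pclaf led this order. It rose from 59.1 CPM at 0 mitosis UMIs to 128, 261 and 365 CPM in library 1, and from 47.3 to 104, 215 and 354 CPM in library 2, ratios of 6.18 (5.37 to 7.15) and 7.49 (6.37 to 8.87). Rad51ap1 rose from 7.05 to 39.9 CPM and from 5.91 to 39.6 CPM. Clspn rose from 9.70 to 48.6 CPM in library 1 and from 14.0 to 39.4 CPM in library 2, with its highest level at 3 to 5 in both. E2f8 rose from 32.9 to 103 CPM and from 20.5 to 90.3 CPM. Rrm2 rose from 37.9 to 131 CPM and from 30.8 to 117 CPM, and was also highest at 3 to 5.

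Ung stood at the opposite end. Its level was 58.2, 69.7, 67.5 and 28.3 CPM over the 4 bins in library 1 and 39.8, 53.2, 56.6 and 19.8 CPM in library 2, ratios of 0.49 (0.41 to 0.58) and 0.50 (0.39 to 0.63). Cdt1 fell from 82.9 to 57.8 CPM and from 69.1 to 48.1 CPM, a ratio of 0.70 in both libraries. Mcm2 had ratios of 0.63 (0.55 to 0.74) in library 1 and 0.98 (0.82 to 1.17) in library 2. Msh6 had 0.79 in both, and Mcm4 0.76 and 0.94. Pcna was nearly level, at 1.11 and 1.15. The order did not follow the roles. Among licensing genes Gmnn was higher in mitosis-high cells, with ratios of 1.85 and 1.49, and Dtl was level at 1.04 and 0.997. Among MCM genes Mcm5 had 1.20 and 1.496, unlike Mcm2. Of the promoters printed above, Cdt1 and Msh6 belong to the low end and Clspn and Pclaf to the high end, and they were picked for their match. The other genes among these 10 that the promoter table holds, Rad51ap1, E2f8, Rrm2, Ung and Mcm2, had 0 matches, and Mcm4 has no entry.

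**Figure D3:**
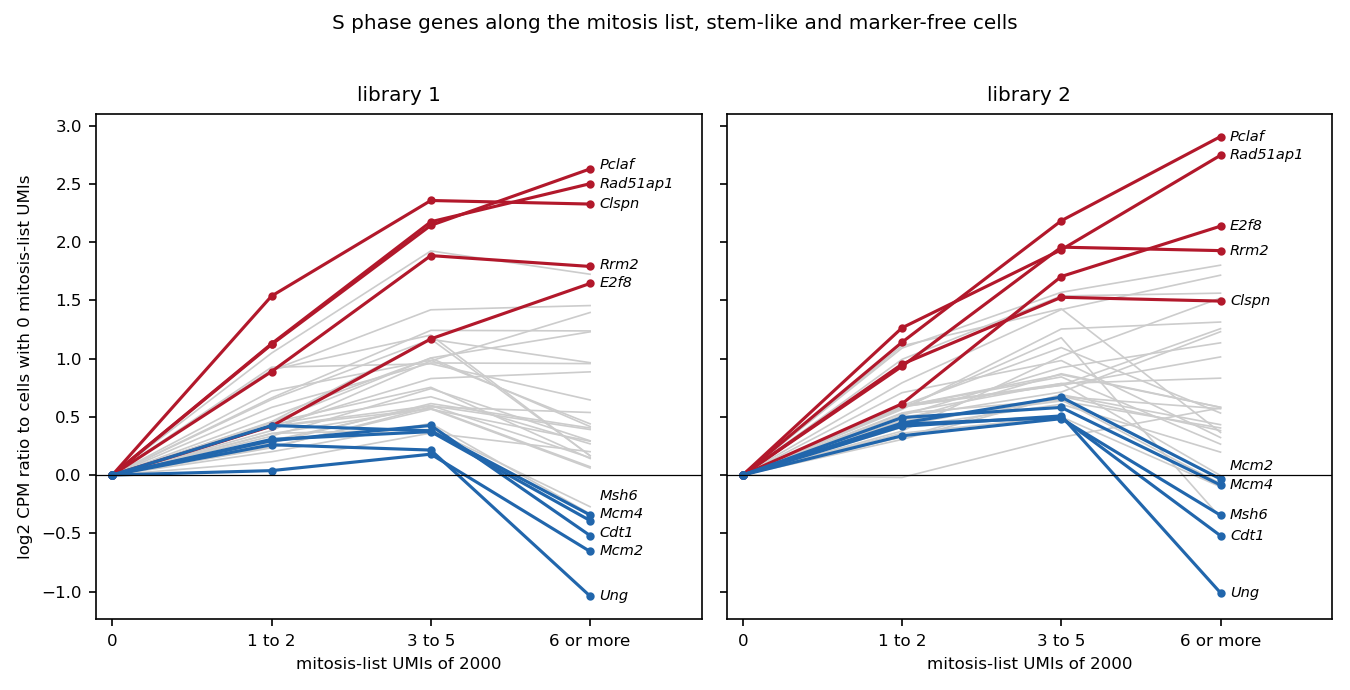
Level of 36 genes relative to cells with 0 mitosis-list UMIs (y axis, log2 ratio of CPM) by mitosis-list UMIs of 2000 (x axis), stem-like and marker-free cells together, 1 panel per library. Red lines are the 5 genes with the highest ratio at 6 or more and blue lines the 5 with the lowest, by the geometric mean over libraries, and grey lines are the rest. Pclaf ends highest and Ung lowest in both panels.

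Per cell, the summed genes gave a broad range in the stem-like class, with a median of 6 UMIs in library 1 and 5.5 in library 2. After thinning to 2000 UMIs, 62.6% (59.2 to 65.9) of 832 stem-like cells in library 1 and 58.5% (54.6 to 62.3) of 648 in library 2 held at least 5 UMIs of the list. Thinning left out 212 and 97 shallower cells, and without it the shares were 84.9% and 88.1%. Marker-free cells reached 41.4% (38.2 to 44.7) of 896 and 29.4% (26.3 to 32.7) of 795, unthinned 77.3% and 78.8%. Enterocyte-like cells reached 0.163% of 612 and 0.665% of 752. Their median depth was 13705 and 14926 UMIs, against 11392 and 12422 in stem-like cells, and their unthinned shares were 59.4% and 63.3%. Lymphocyte-like cells had been planned as the reference for background RNA. They reached 14.4% of 202 and 30.5% of 187, and neither class is read as background here. Goblet-like cells reached 23.8% (19.5 to 28.5) of 362 and 12.8% (9.91 to 16.2) of 460, unthinned 60.7% and 52.7%.

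Many cells held both S phase and mitosis UMIs. Of stem-like cells, 26.7% in library 1 and 25.3% in library 2 had at least 5 S phase UMIs with fewer than 3 mitosis UMIs, 35.9% and 33.2% had both, 22.4% and 24.4% had mitosis UMIs alone, and 15.02% and 17.1% had neither. Marker-free cells held fewer cells of the first kind, 10.5% (8.56 to 12.7) and 7.17% (5.48 to 9.19). In stem-like cells the share with at least 5 S phase UMIs had no steady rise with mitosis UMIs. From 0 to 6 or more it was 60.3%, 66.1%, 68.9% and 58.4% in library 1, and 60.6%, 59.1%, 59.6% and 56.9% in library 2. In marker-free cells it went from 20.4% at 0 to 50.2% at 6 or more in library 1, and from 13.7% to 40.6% in library 2. The genes were detected together in stem-like and marker-free cells taken as 1 set: a Pcna UMI was found in 24.6% of library 1 cells with 0 to 1 UMIs of the other genes and in 73.5% of those with 10 or more. In library 2 these shares were 18.9% and 70.8%. For Mcm6 they were 9.54% and 46.7% in library 1 and 7.14% and 56.8% in library 2, and for Rrm2 3.86% and 38.3%, and 3.39% and 48.9%.

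**Figure D4:**
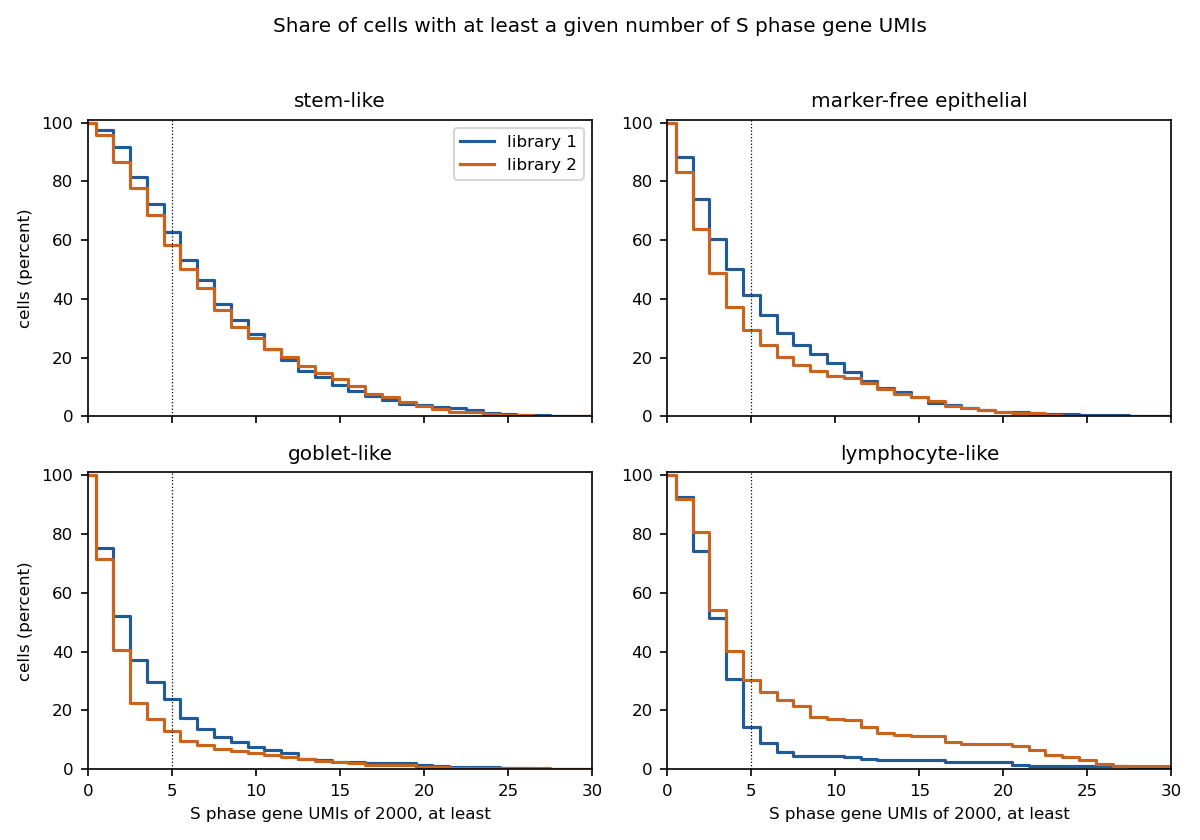
Share of cells in percent (y axis) with at least a given number of S phase gene UMIs (x axis) after thinning each cell to 2000 UMIs, library 1 in blue and library 2 in orange, 4 classes. The dotted line marks 5 UMIs, where stem-like cells stand at 62.6% and 58.5% and lymphocyte-like cells at 14.4% and 30.5%.

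Between the libraries, stem-like cells differed little. The summed ratio of library 2 over library 1 was 0.978 (0.965 to 0.992), and 0 of 36 genes were apart, against 4.56% of all features. Ordered by the upper bound of the interval, the lowest was Ung, 66.6 and 54.5 CPM, a ratio of 0.82 (0.73 to 0.91), followed by Mcm4 at 0.89 (0.83 to 0.95) and Pcna at 0.94 (0.90 to 0.99). The highest by their lower bounds were Mcm2 at 1.08 (0.99 to 1.18), Rrm2 at 1.07 (0.98 to 1.17) and Rrm1 at 1.04 (0.97 to 1.11). Every one of these ratios lay within 1.5-fold.

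In marker-free cells nearly every gene was lower in library 2, by a small amount. The summed ratio was 0.792 (0.780 to 0.805). Of 36 genes 35 were lower and 32 had an interval below 1, and no share of all features was computed for these counts. The median log2 ratio of the 36 genes was -0.32, beside 0.04 over all features. By the size rule 0 were apart, against 5.67% of all features apart in either direction. By the upper bound of the interval Rrm2 was lowest, at 116.9 and 79.9 CPM, a ratio of 0.68 (0.63 to 0.74), then E2f8 at 0.71 (0.65 to 0.78) and Pola1 at 0.70 (0.62 to 0.79). Gins2 was the gene on the other side, at 5.85 and 6.75 CPM, a ratio of 1.15 (0.84 to 1.58). Split by enterocyte marker UMIs per 10000, the summed ratio was 0.904 below 5, 0.887 at 5 to 10, 0.931 at 10 to 20 and 0.799 at 20 to 30, the first 3 nearer to 1 than for the class as a whole. The bins differed in size, with 413 and 167 cells below 5.

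Goblet-like cells showed the same direction with a larger size. The summed ratio was 0.694 (0.673 to 0.715), and 34 of 36 genes were lower in library 2. The median log2 ratio of the 36 genes was -0.51, beside 0.02 over all features. Of the 36, 12 were apart, against 3.78% of all features apart lower. They were Mcm3, Mcm7, Cdc45, Prim1, Pcna, Pclaf, Rpa2, Rrm2, Chaf1a, Chaf1b, E2f8 and Rad51ap1. In this class 10 of 435 cells gave 20.3% of the S phase UMIs in library 1, and 10 of 526 gave 21.4% in library 2. Prim1 held 70.2 and 36.1 CPM, a ratio of 0.51 (0.43 to 0.61), and Mcm7 57.9 and 29.9 CPM, a ratio of 0.52 (0.43 to 0.63). Of the other replication genes, 17 of 62 were apart lower and 0 higher. Goblet markers moved with this difference: their sum in the class was 55244 CPM in library 1 and 73889 CPM in library 2. Split by goblet marker UMIs per 10000, the S phase sums were 3029 and 2989 CPM at 100 to 200, 2220 and 2057 CPM at 200 to 500, 1025 and 960 CPM at 500 to 1000, and 422 and 409 CPM at 1000 or more. These 4 bins were close between the libraries, while cells at 500 or more numbered 93 and 110 in library 1 and 157 and 174 in library 2. Below 100 the sums were 3583 and 2115 CPM, in 31 and 17 cells.

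**Figure D5:**
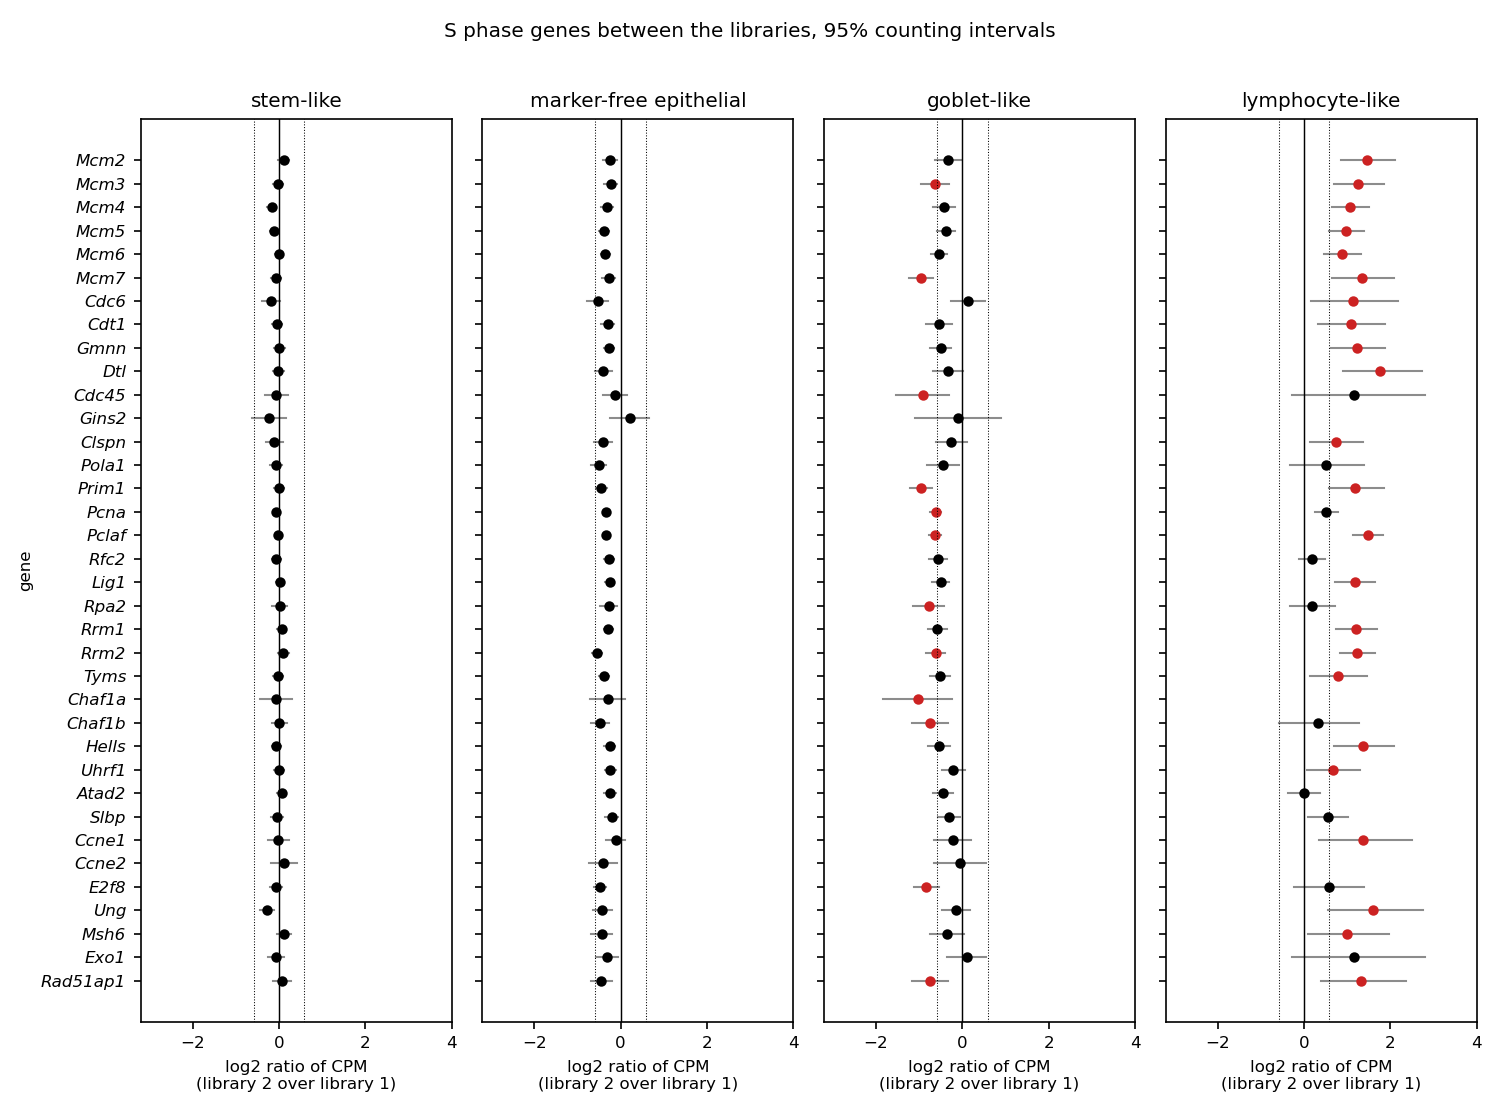
Ratio of CPM in library 2 over library 1 on a log2 scale (x axis) for each measured gene (y axis) in 4 classes, with 95% counting intervals; dotted lines mark 1.5-fold, and red points are genes called apart. Points sit on 0 in stem-like cells, left of 0 in marker-free and goblet-like cells, and right of 0 in lymphocyte-like cells.

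Rare secretory classes held few S phase UMIs and these came from few cells. In enteroendocrine-like cells the sum was 1480 CPM in library 1 and 640 CPM in library 2, a ratio of 0.433 (0.382 to 0.489). There 13 of 21 measured genes were apart lower, against 5.37% of all features, but 10 of the 49 cells gave 77.0% of the class's 691 S phase UMIs in library 1, and 10 of 73 gave 43.1% in library 2. In tuft-like cells the sum was 1953 and 1366 CPM, 4 of 21 genes (Mcm6, Cdt1, Rfc2 and Uhrf1) were apart lower against 3.24% of all features, and 10 of 24 cells gave 93.6% of the UMIs in library 1 and 10 of 49 gave 71.2% in library 2. Enterocyte-like cells had 1 gene lower (Ung, 5.73 and 3.73 CPM) and 1 higher (Exo1, 1.04 and 2.33 CPM) of 35 measured, against 6.07% in either direction. Paneth-like cells had Lig1 lower, 36.3 and 22.5 CPM, the single gene apart of 31, against 8.93%.

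Lymphocyte-like cells went the opposite way. Their summed level was 2059 CPM (1957 to 2165) in library 1 and 3767 CPM (3640 to 3897) in library 2, a ratio of 1.83 (1.72 to 1.94). All 33 measured genes were higher in library 2, and 23 were apart, against 6.28% of features apart higher. The median log2 ratio of the 33 genes was 1.13, beside -0.02 over all features. Pclaf held 128 and 357 CPM, a ratio of 2.79 (2.21 to 3.54). Rrm2 held 97.2 and 228 CPM, Mcm2 40.5 and 112 CPM, and Dtl 18.9 and 64.4 CPM, ratios of 2.35, 2.76 and 3.41. By contrast Atad2 held 152 and 154 CPM, Rfc2 213 and 244 CPM and Rpa2 76.9 and 88.1 CPM, none of them apart. Against these cells, enterocyte-like cells were apart lower for 31 of 32 genes in both libraries, beside 32.7% of all features, with Gmnn the exception.

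The lymphocyte-like difference in shares of cells depended on the number of UMIs asked for. After thinning to 2000 UMIs, cells with at least 3 S phase UMIs were 51.5% of 202 in library 1 and 54.0% of 187 in library 2. With at least 5 they were 14.4% (9.83 to 19.96) and 30.5% (24.0 to 37.6), unthinned 25.7% and 46.8%. Thinned to 5000 UMIs, which 11 and 49 cells reached, they were 90.9% (58.7 to 99.8) and 89.8% (77.8 to 96.6), with overlapping intervals. With 10 or more of 2000 they were 4.46% (2.06 to 8.29) and 17.1% (12.01 to 23.3). Thinning left out 67 and 35 cells, and median depth was 2444 and 3247 UMIs. The 10 cells with the most gave 44.6% of the class's 1526 S phase UMIs in library 1 and 34.0% of 3334 in library 2. Of the cells with 10 or more, 7 of 9 in library 1 and 21 of 32 in library 2 also held at least 3 mitosis UMIs, against 5 of 98 and 3 of 86 with 0 to 2. These cells carried T cell genes: Cd3e stood at 759 and 1200 CPM and Gzma at 13206 and 30720 CPM in them, beside 1823 and 1542 CPM and 32192 and 28525 CPM in cells with 0 to 2. Epithelial markers summed to 1800 and 981 CPM in them, beside 1100 and 688 CPM. The lymphocyte markers summed to 30449 and 60626 CPM in the cells with 10 or more, beside 82585 and 74307 CPM. Their median depth was 4964 and 7888 UMIs, beside 2692 and 3267. Whether some of these barcodes are doublets was not tested.

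In cells with 0 to 2 S phase UMIs some of these genes were still detected. Rfc2 held 113 and 146 CPM there, Pcna 133 and 82.7 CPM, and Slbp 40.0 and 89.4 CPM, while Rad51ap1 was at 0 in both. These cells were chosen by low sums, so the levels are a description. A list of B and myeloid markers summed in the class to 2678 CPM in library 1 and 837 CPM in library 2, and mitosis genes to 1283 and 2648 CPM. The list includes Tyrobp and Fcer1g, which T cells carry too, so its sum by itself does not show B or myeloid cells. Of those 7 B and myeloid genes, Cd79a, Ms4a1 and C1qa were at 0 in library 1, and Lyz2 and C1qa in library 2. The T cell receptor gene Trdc and the coreceptor gene Cd8b1 moved with the library as well, and the part of these markers in the S phase difference was not tested. The receptor gene Trac moved less, with a UMI in 222 of 269 cells in library 1 and 194 of 222 in library 2. A Trdc UMI was found in 143 of 269 lymphocyte-like cells in library 1 and 52 of 222 in library 2, and a Cd8b1 UMI in 30 and 106. With a Trdc UMI the S phase sum was 1738 and 4294 CPM, and without one 2454 and 3576 CPM. With a Cd8b1 UMI it was 4613 and 3474 CPM, and without one 1653 and 4015 CPM. The library difference was thus present with and without Trdc and without Cd8b1, and reversed in the cells with Cd8b1, which are 30 in library 1. In a class sum, more cells in cycle and more S phase RNA per cell cannot be told apart.

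Outside the list, 9705 genes were ranked by the Pearson correlation of their log levels with the summed S phase genes across stem-like and marker-free cells, 2151 in library 1 and 1635 in library 2. Cells of a library share depth and capture, so the coefficients are a description. The most alike was Slfn9, a Schlafen family gene, at 0.50 and 0.60. Dnmt1, the maintenance methyltransferase, followed at 0.44 and 0.49, and Dek, a chromatin protein, at 0.42 and 0.49. Tubb5 and Stmn1, which encode a tubulin and a tubulin-binding protein, stood at 0.38 and 0.50 and at 0.40 and 0.46. Nasp, a histone chaperone, Hat1, a histone acetyltransferase, Nap1l1, another histone chaperone, Dut, which removes dUTP, and Tmpo, a lamina protein, completed the first 10, from 0.36 and 0.45 for Tmpo to 0.39 and 0.46 for Nasp.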

How the data were processed

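The authors deposited 1 matrix of whole-number UMI counts per gene and barcode for both libraries, made with Cell Ranger 2.1.1 on mm10 per the submitters' processing notes. The deposited counts are not normalized. Barcodes with at least 500 genes and at most 25% mitochondrial UMIs were kept, and 38.98% were removed. Classes were set by cuts on marker UMIs per 10000, chosen from the marker distributions after the counts were in hand and without looking at S phase genes. Cells passing the cuts of several classes were set aside as mixed, which was the treatment of doublets, and no caller was run. Level is CPM of the class, with exact Poisson intervals, and ratios have the exact conditional interval of 2 Poisson counts. Shares have Clopper-Pearson intervals, after thinning each cell to 2000 UMIs. The counts were analysed with Python 3.11.15, numpy 2.4.6, scipy 1.17.1 and pandas 2.3.3, and the scripts were tested on simulated counts. Gene positions are from GENCODE M21. Named genes are the 2 with the most UMIs in each role, those whose highest class differs from that of the sum, those apart between libraries in stem-like or marker-free cells (with under 5, also the 3 lowest and 3 highest), the 5 at each end of the mitosis split and the 10 most alike genes. Others were named after their values were seen. The gene list, the marker lists and the other replication genes (63 of 64 matched) were chosen with earlier results of these data known. Alternatives were other cell filters, other marker cuts, other minimum counts and size rules, thinning, leaving out the top 5% of cells and leaving out shared barcodes.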

Additional observations from a re-analysis of the deposited data

Results flagged for a closer look

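The S phase sum of library 2 over library 1 was 1.83 (1.72 to 1.94) in lymphocyte-like cells and 0.694 (0.673 to 0.715) in goblet-like cells. These point in opposite directions under the same comparison of libraries, and all 33 measured genes of the former were higher while 34 of 36 of the latter were lower. The difference between the classes was not tested, since each library is 1 pool.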

How the results depend on the processing

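The libraries are single pools, so counting intervals are a lower limit on the error of any ratio between them. Classes of few cells (tuft-like, enteroendocrine-like) each left 16 of the 37 genes unmeasured. No paired analysis was possible because each group has 1 library. Over the alternatives the number of goblet-like genes apart lower ranged from 1 to 14 and that of lymphocyte-like genes apart higher from 10 to 27. Doubled marker cuts gave 6 genes lower in marker-free cells instead of 0 and 5 in goblet-like cells instead of 12. The summed ratio between libraries was then 0.731 in marker-free, 0.756 in goblet-like and 2.12 in lymphocyte-like cells. Stem-like over enterocyte-like was then 8.69 in library 1 and 8.51 in library 2, and stem-like over marker-free 1.55 and 2.07. Thinning to 2000 UMIs gave 2 genes lower in marker-free cells. In lymphocyte-like cells it gave 10 of 23 measured genes higher instead of 23 of 33. The summed ratio was then 0.819 in marker-free, 0.733 in goblet-like and 1.68 in lymphocyte-like cells. In enterocyte-like cells it was 1.04 (0.928 to 1.158) instead of 0.972 (0.935 to 1.01), and both intervals hold 1. With this thinning, stem-like over enterocyte-like was 7.22 in library 2, and stem-like over marker-free 1.42 and 1.67. Without the top 5% of cells the summed ratio was 0.817 in marker-free, 0.718 in goblet-like and 2.003 in lymphocyte-like cells. Under a stricter filter, 1000 genes and 15% mitochondrial UMIs as limits, 1 gene was lower in marker-free cells and the stem-like summed ratio was 0.993. Stem-like over enterocyte-like was then 8.08 in library 2, and stem-like over marker-free 1.40 and 1.77. Without a cell filter these were 7.63 in library 2 and 1.496 in library 1, and the stem-like summed ratio was 0.959. A ratio of 2 as the size rule left 1 goblet-like gene, and a minimum of 100 UMIs left 13 of 18 measured lymphocyte-like genes. Of 64 shares of cells recomputed, 29 moved beyond their interval, mostly with the number of UMIs asked for or the thinning depth. Thinned to 5000 UMIs, the lymphocyte-like shares with at least 5 S phase UMIs were 90.9% of 11 cells and 89.8% of 49, and the order of the libraries was no longer that at 2000. The cause was not tested. Leaving out the shared barcodes, added after seeing the data, moved none of these values.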

Other observations

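Cells that passed the marker cuts of several classes, which entered no comparison, numbered 258 in library 1 and 164 in library 2. Their S phase sum was 2054 and 1772 CPM, and 30.6% (23.9 to 37.8) and 26.5% (18.2 to 36.1) of those deep enough held at least 5 S phase UMIs after thinning.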
